A study of Homo sapiens with 12 samples.

Results

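The genes described here are 9 genes of bile acid synthesis, conjugation and export and of their control by the farnesoid X receptor (FXR): CYP7A1, CYP8B1, CYP27A1, SLC27A5, BAAT, ABCB11, ABCB4, NR1H4 and NR0B2. They were picked by symbol from the 26364 gene rows of the count table. No measured value served as a rule for the choice, but earlier results of these data were known. HepG2, an established line from a human liver cancer, was sequenced as total RNA at 0, 5, 10, 30 and 240 min after insulin was added, with 2 libraries at each time. In the same line, 1 library of chromatin immunoprecipitation sequencing (ChIP-seq) with an antibody against the insulin receptor (IR) gave a list of peaks. It came with 1 input library, and the treatment text of both names 3 nM insulin. The question behind the time course was how insulin changes the transcripts of a hepatocyte-like cell. By the labels, all 10 RNA libraries came from unmodified cells of this line. Their treatment text has the cells held overnight in EMEM medium alone and then given EMEM with bovine serum albumin. The label texts look exchanged between RNA and ChIP libraries, since the RNA libraries carry a text on DNA extraction. For HepG2 the study's methods instead describe days with insulin and a washout before acute insulin, so that earlier insulin in the 0 min cells cannot be told. The treatment text of the labels names 3 nM insulin and 5 min for every RNA library, those at 0 min included, so that the times used here come from the library titles, and 0 min was read as the unstimulated state. By the study's methods the replicates were biologically independent and the sequencing experiment was run a single time, so that p-values measure the spread between libraries of 1 experiment.

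Bile acids are made from cholesterol in hepatocytes. CYP7A1 opens the classic pathway and sets its rate, CYP8B1 adds the hydroxyl group that makes cholic acid, and CYP27A1 is the mitochondrial sterol 27-hydroxylase that opens the alternative pathway. SLC27A5 and BAAT then join bile acids to glycine or taurine, ABCB11 (the bile salt export pump) and ABCB4 (a phosphatidylcholine floppase) load the bile, and bile acids that build up in the cell activate FXR, the product of NR1H4, which induces NR0B2 (the co-repressor SHP), ABCB11 and ABCB4 and through SHP lowers CYP7A1 and CYP8B1.

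The libraries held 18347109 to 45005769 reads on genes, and the deepest was replicate 2 at 0 min. Levels of 1 gene across libraries are given as CPM, read counts scaled to library size after TMM. Where genes are set beside each other they are given as TPM, which also divides by transcript length. All 10 hepatocyte markers examined reached at least 1 CPM in every library. Of the markers of other cells, PTPRC of blood cells had 0 counts throughout, CDH5, KDR, TEK and CLEC4M of endothelial cells, CFTR and KRT7 of cholangiocytes and COL1A2, DCN and LUM of fibroblasts stayed under 1 CPM, and the blood cell list summed to 4846 to 6479 CPM, of which LYZ gave 4804 to 6433 CPM. Of the 13852 genes that passed the filter on low counts, 8 were among the 9. ABCB11 did not pass.

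Per transcript length, CYP27A1 was the most abundant of the 9, with 129.7 to 164.5 TPM over the 10 libraries. BAAT followed with 64.9 to 81.9 TPM and NR0B2 with 37.1 to 63.2 TPM. These ranges did not overlap one another. ABCB4 lay at 18.0 to 22.9 TPM and CYP7A1 at 14.2 to 30.1 TPM, ranges that overlapped, so that these neighbours in the order cannot be ranked. NR1H4 lay at 8.63 to 13.3 TPM. The lowest of the detected genes were SLC27A5, at 5.50 to 7.76 TPM, and CYP8B1, at 4.49 to 7.30 TPM, and their ranges overlapped too. The plot of levels per transcript length shows the order, with ABCB11 at 0 TPM in every library.

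**Figure D1:**
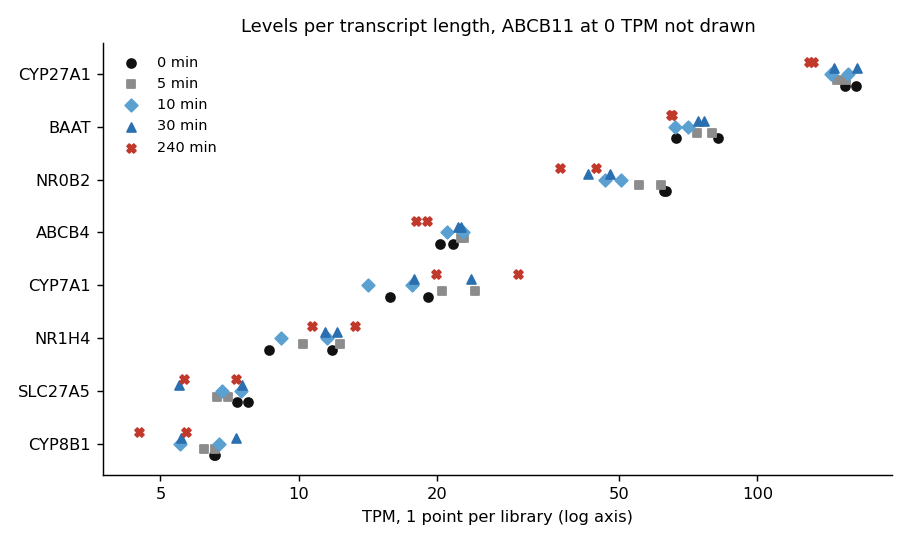
TPM of 8 genes on a log axis, with 1 point for each of the 10 libraries and a symbol for each time. CYP27A1 lies highest at 129.7 to 164.5 TPM and CYP8B1 lowest at 4.49 to 7.30 TPM, and the points of ABCB4 overlap those of CYP7A1. ABCB11, at 0 TPM, is not drawn.

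Promoter sequences are shown for 3 of the genes because FXR binds DNA most often at an inverted repeat of the hexamers AGGTCA and TGACCT with 1 base between them, and these 250 bases before the start show how close each gene comes to it. They are RefSeq sequences on build GRCh38.p14, read on the strand of the gene from 5′ to 3′. RefSeq entries were matched for 5 of the 9 genes, ABCB11, CYP27A1, BAAT, NR1H4 and SLC27A5, with a pair of entries for BAAT, and not for CYP7A1, CYP8B1, NR0B2 and ABCB4. Capitals mark the 12 letters compared in the single window with the fewest mismatches to the repeat. Other, less close windows were left in lower case, and the marked window need not be a site that FXR uses. ABCB11 (chr2:169031325-169031574, minus strand) is the undetected member, SLC27A5 (chr19:58511993-58512242, minus strand) has the next nearest window, and CYP27A1 (chr2:218781897-218782146, plus strand) is the most abundant member.
ABCB11: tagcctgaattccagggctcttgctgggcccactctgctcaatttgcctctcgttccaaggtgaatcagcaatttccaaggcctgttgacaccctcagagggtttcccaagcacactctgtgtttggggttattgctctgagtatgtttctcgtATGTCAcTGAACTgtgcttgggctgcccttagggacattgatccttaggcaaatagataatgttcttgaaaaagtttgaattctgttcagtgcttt
SLC27A5: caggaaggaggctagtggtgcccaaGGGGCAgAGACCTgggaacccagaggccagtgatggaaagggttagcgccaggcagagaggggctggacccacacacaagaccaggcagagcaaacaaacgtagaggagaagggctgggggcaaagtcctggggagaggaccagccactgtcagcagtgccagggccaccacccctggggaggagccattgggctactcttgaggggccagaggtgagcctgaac
CYP27A1: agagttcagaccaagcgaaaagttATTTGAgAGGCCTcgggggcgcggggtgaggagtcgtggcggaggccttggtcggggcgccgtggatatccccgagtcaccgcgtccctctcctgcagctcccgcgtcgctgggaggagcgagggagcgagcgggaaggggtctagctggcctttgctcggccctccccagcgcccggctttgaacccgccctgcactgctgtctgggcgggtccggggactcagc
The ABCB11 window differed from the repeat at 2 of the 12 letters and began 96 bases before the start. As few or fewer mismatches were found in 0.945% of the 35114 RefSeq promoters searched on both strands. In SLC27A5 the nearest window had 3 mismatches, reached by 8.92% of promoters, and in CYP27A1 it had 5, reached by 95.2%. NR1H4 and both BAAT entries came within 4 mismatches, as did 46.5% of promoters. The single hexamer AGGTCA, on either strand, stood once in NR1H4 and once in 1 of the BAAT entries, and in 12.1% of promoters. Neither the FOXO site GTAAACA, present in 2.98% of promoters, nor the insulin response sequence core CAAAACA, present in 4.3%, was found in any of the 6 entries. These matches describe letters in a window of 250 bases and say nothing of binding.

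The 9 genes were first compared between 240 min and 0 min. NR0B2, CYP27A1, CYP8B1, BAAT and ABCB4 fell, CYP7A1 rose, and NR1H4 and SLC27A5 did not pass the test. The falls were of 12.8% (ABCB4) to 37.2% (NR0B2) and CYP7A1 rose 1.39-fold. Thus 6 of the 8 tested genes were called at an adjusted p under 0.05, beside 41.0% of all 13852 genes tested (20.6% higher and 20.4% lower). The median log2 fold change was -0.24 over the 8 genes and -0.0026 over all genes. Calls were made with edgeR's quasi-likelihood test on the counts in 1 model of the 10 libraries, with Benjamini-Hochberg adjustment over all genes tested. In bulk libraries, fewer cells that express a gene and less of its RNA per cell cannot be told apart.

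Among the synthesis enzymes, CYP7A1 was the gene that rose. At 0 min its level was 18.7 CPM in replicate 1 and 22.3 CPM in replicate 2, and at 240 min it was 34.6 CPM and 22.5 CPM. At 5 min it stood at 23.7 and 28.3 CPM, at 10 min at 20.5 and 16.7 CPM, and at 30 min at 27.8 and 20.5 CPM. Replicate 1 at 240 min was thus the highest of the 10 libraries, whereas replicate 2 at 240 min lay just above replicate 2 at 0 min and within the range of the earlier times. The log2 fold change at 240 min was 0.48 (SE 0.16, edgeR adjusted p = 0.020). It was 0.11 with an edgeR adjusted p of 0.651 when replicate 1 at 240 min was left out, and 0.37 with an edgeR adjusted p of 0.124 without replicate 1 at 0 min. DESeq2 gave a like fold change with an adjusted p of 0.177, so that the call on CYP7A1 was lost without either of these libraries and with the other count test.

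CYP27A1 fell at 240 min and was not called at any earlier time. Its level was 146 and 153 CPM at 0 min, 143 and 139.5 CPM at 5 min, 146 and 136 CPM at 10 min, and 153 and 133 CPM at 30 min. Both libraries at 240 min, with 121 and 117 CPM, were below all 8 libraries of the earlier times. Between 0 and 240 min it changed by -0.33 on the log2 scale (SE 0.059, edgeR adjusted p = 0.000191), and leaving out any of the 4 libraries compared gave values from -0.36 to -0.30, each called. Of 13 alternative settings, 12 kept the call, and scaling by the ERCC spike-in RNAs did not (log2 fold change -0.44, edgeR adjusted p = 0.132).

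CYP8B1 moved less clearly. It was at 10.5 and 10.4 CPM at 0 min and at 8.92 and 6.94 CPM at 240 min. In between it was at 9.74 and 10.5 CPM at 5 min, 10.6 and 8.90 CPM at 10 min, and 11.6 and 8.55 CPM at 30 min. The libraries at 240 min lay below both at 0 min, but replicate 1 at 240 min was no lower than replicate 2 at 10 and at 30 min. The difference was called at a log2 fold change of -0.38 (SE 0.14, edgeR adjusted p = 0.035). DESeq2 gave an adjusted p of 0.067. Without replicate 2 at 240 min the log2 fold change was -0.23 (edgeR adjusted p = 0.271), and the call was lost without either 0 min library as well (-0.38 and -0.40, edgeR adjusted p = 0.0838 and 0.122).

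**Figure D2:**
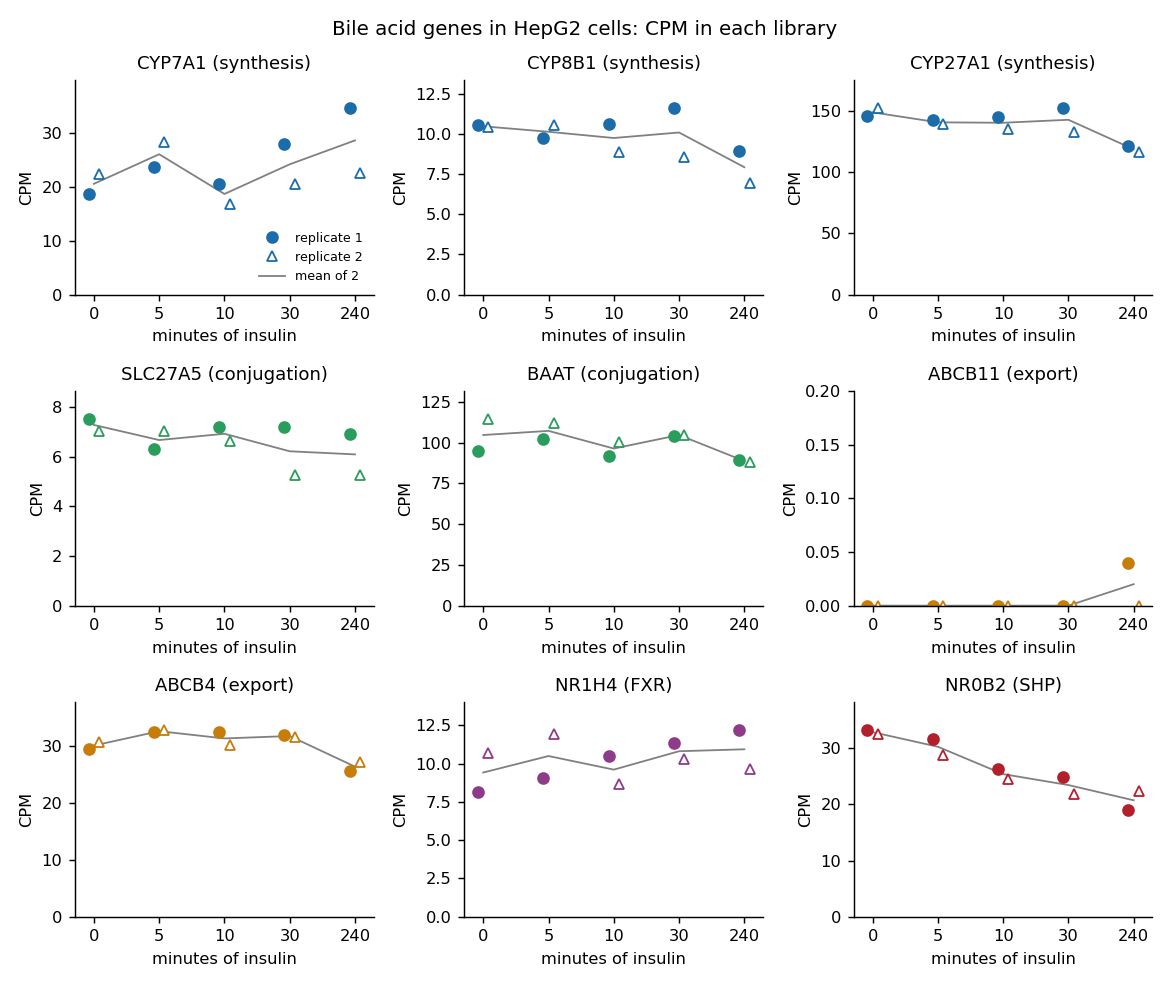
CPM of each of the 9 genes against minutes of insulin, with replicate 1 as circles, replicate 2 as triangles and a line through the mean of the 2. NR0B2 goes from 33.2 and 32.5 CPM at 0 min to 19.0 and 22.5 CPM at 240 min, the CYP7A1 replicates at 240 min lie apart at 34.6 and 22.5 CPM, and ABCB11 has its 1 read at 240 min.

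The conjugation enzymes were BAAT, which transfers the amino acid, and SLC27A5, which activates the bile acid for it. BAAT was at 94.7 and 115 CPM at 0 min and at 89.4 and 87.9 CPM at 240 min. Its other libraries lay between 92.0 CPM, in replicate 1 at 10 min, and 112 CPM, in replicate 2 at 5 min. The 240 min libraries were the lowest of the 10, but the replicates at 0 min differed from each other by more than replicate 1 did from either 240 min library. The log2 fold change was -0.25 (SE 0.071, edgeR adjusted p = 0.00921), and -0.096 with an edgeR adjusted p of 0.348 without replicate 2 at 0 min. For SLC27A5, 7.52 and 7.03 CPM at 0 min stood against 6.92 and 5.26 CPM at 240 min, and the libraries between them ranged from 5.25 to 7.19 CPM. Its replicates at 30 and at 240 min were far apart. This difference of -0.23 on the log2 scale (SE 0.15) was not called (edgeR adjusted p = 0.238).

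Of the exporters, ABCB11 was all but absent from the counts. It had 1 read, in replicate 1 at 240 min, among 254846708 reads on genes over the 10 libraries, for which the exact Poisson 95% interval is 0.0253 to 5.57 reads. A count of 0 allows up to 3 reads in a library, or 0.0667 CPM in the deepest and 0.164 CPM in the shallowest, and these limits cover counting error only. No comparison between times was made for it. ABCB4 was at 29.4 and 30.8 CPM at 0 min, at 30.2 to 32.8 CPM in the 6 libraries from 5 to 30 min, and at 25.6 and 27.2 CPM at 240 min. Both 240 min libraries were thus below the other 8, while both 5 min and both 30 min libraries were above those at 0 min. The log2 fold change at 240 min was -0.20 (SE 0.068, edgeR adjusted p = 0.026). DESeq2 gave an adjusted p of 0.088 for the same difference, and without replicate 1 at 240 min or replicate 2 at 0 min it was -0.15 and -0.16 (edgeR adjusted p = 0.207 and 0.194).

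NR1H4, the gene of FXR itself, did not pass the test at any time. It was at 8.12 and 10.7 CPM at 0 min, 9.07 and 11.9 CPM at 5 min, 10.5 and 8.69 CPM at 10 min, 11.3 and 10.3 CPM at 30 min, and 12.2 and 9.68 CPM at 240 min. The groups overlapped at every time. At 240 min the log2 fold change was 0.19 (SE 0.15, edgeR adjusted p = 0.322), and it ranged from -0.0023 to 0.44 with 1 of the 4 libraries left out.

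NR0B2, which encodes SHP, had the largest change of the 8 tested genes at 240 min. Its level was 33.2 and 32.5 CPM at 0 min, 31.6 and 28.9 CPM at 5 min, 26.2 and 24.5 CPM at 10 min, 25.0 and 21.9 CPM at 30 min, and 19.0 and 22.5 CPM at 240 min. Both libraries at each later time were below both at 0 min, and the mean was lower at each time than at the one before, from 32.8 ± 0.533 CPM (SD, n = 2) at 0 min through 30.2 ± 1.96, 25.4 ± 1.20 and 23.4 ± 2.15 CPM to 20.7 ± 2.45 CPM (SD, n = 2) at 240 min. The log2 fold change at 240 min was -0.67 (SE 0.085, edgeR adjusted p = 4.20e-06). This call held in all 13 alternative settings, with ERCC scaling, DESeq2 and limma on TPM among them, and with any of the 4 libraries compared left out, where the values ran from -0.79 to -0.55. Over the same times the summed CPM of the blood cell markers, nearly all of it LYZ, went from a mean of 6198 at 0 min to 4916 at 240 min. Its part in the NR0B2 result was not tested, and PTPRC was at 0 in every library.

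**Figure D3:**
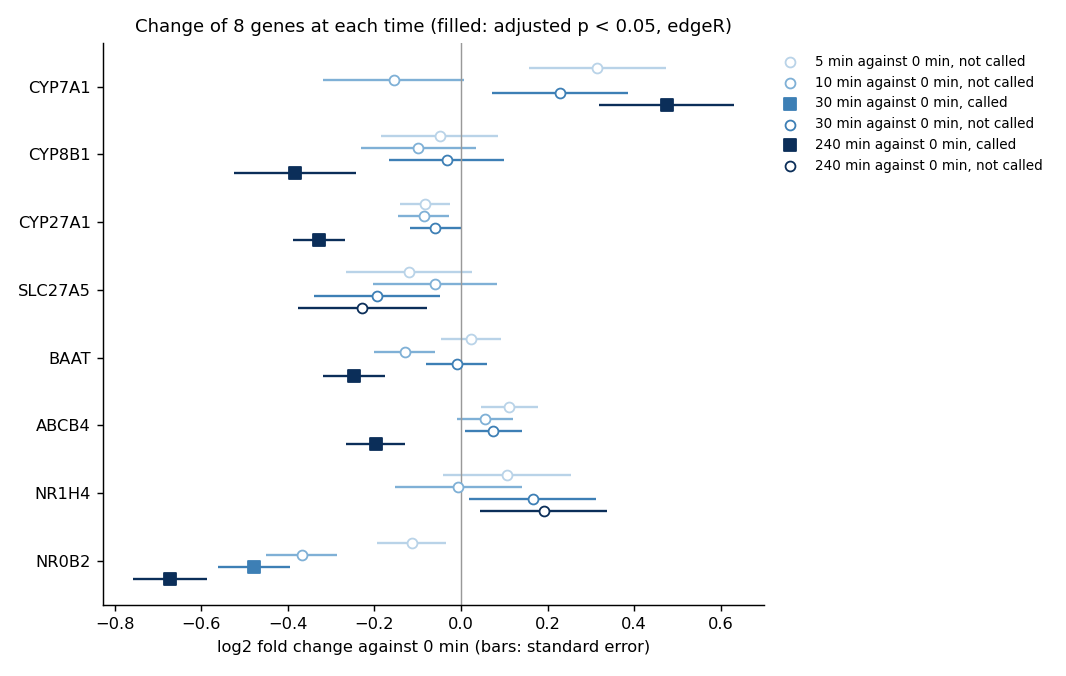
Log2 fold change of the 8 tested genes at 5, 10, 30 and 240 min against 0 min, with the standard error as bars, from edgeR. Filled squares mark an adjusted p under 0.05, and they are NR0B2 at 30 min (-0.48) and NR0B2, CYP27A1, CYP8B1, BAAT, ABCB4 and CYP7A1 at 240 min.

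The early times asked which of these genes moved within the first 30 min. NR0B2 was the gene called, at 30 min, with a log2 fold change of -0.48 (SE 0.083, edgeR adjusted p = 0.00986). It was 1 of the 8 tested genes, beside 0.332% of all genes called at that time, and also the 1 with an unadjusted p under 0.05, beside 8.12% of all genes. The groups of replicates did not overlap for 2 of the 8, NR0B2 below and ABCB4 above, beside 38.3% of all genes. Leaving out replicate 1 at 0 min, replicate 2 at 0 min or replicate 2 at 30 min ended the call on NR0B2, with log2 fold changes of -0.46, -0.50 and -0.39 and edgeR adjusted p-values of 0.105, 0.0572 and 0.202. With ERCC scaling its edgeR adjusted p was 0.911, and with limma on log2(TPM + 1) it was 0.326.

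At 10 min the log2 fold change of NR0B2 was -0.37 (SE 0.082), with an unadjusted edgeR p of 0.000236 and an adjusted p of 0.113. None of the 8 was called by edgeR's quasi-likelihood test, by DESeq2 or by limma, beside 0.137% of all genes with the first. NR0B2 was also the 1 of the 8 with an unadjusted p under 0.05, beside 5.13% of all genes, and edgeR's likelihood ratio test called it (adjusted p = 0.00691). At 5 min no member was called, as was the case for all 13852 genes (0%), and 0 of the 8 had an unadjusted edgeR p under 0.05, beside 14.3% of all genes. DESeq2 and limma called 0 members there too. The largest difference at 5 min was that of CYP7A1, with a log2 fold change of 0.32 (SE 0.16, edgeR adjusted p = 0.370) and both libraries above those at 0 min.

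The comparison of 240 min with 30 min asked what changed after the first 30 min, and shares the 240 min libraries with the comparison above. CYP27A1, ABCB4 and BAAT fell, with log2 fold changes of -0.27, -0.27 and -0.24 (SE 0.060, 0.069 and 0.072) and edgeR adjusted p-values of 0.00135, 0.00415 and 0.0135. These are 3 of the 8 tested genes, beside 38.2% of all genes called. The other members were not called, and NR0B2 differed by -0.19 (SE 0.090, edgeR adjusted p = 0.101), against -0.67 from 0 to 240 min. CYP8B1, at -0.35, had an edgeR adjusted p of 0.065, and the replicate number as a block gave 0.042. Leaving out replicate 1 at 30 min for CYP27A1, replicate 1 at 240 min for ABCB4 and replicate 2 at 240 min for BAAT ended the call (edgeR adjusted p = 0.0515, 0.0639 and 0.0562). Without replicate 2 at 30 min 5 of the 8 were called, and with ERCC scaling 0 were. Set against the mean of the 4 earlier times instead, 240 min again had CYP7A1 higher and NR0B2, CYP27A1, CYP8B1, BAAT and ABCB4 lower, 6 of the 8 beside 47.4% of all genes, with NR0B2 at -0.43 and CYP27A1 at -0.27 (edgeR adjusted p = 6.00e-05 and 0.000114).

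**Figure D4:**
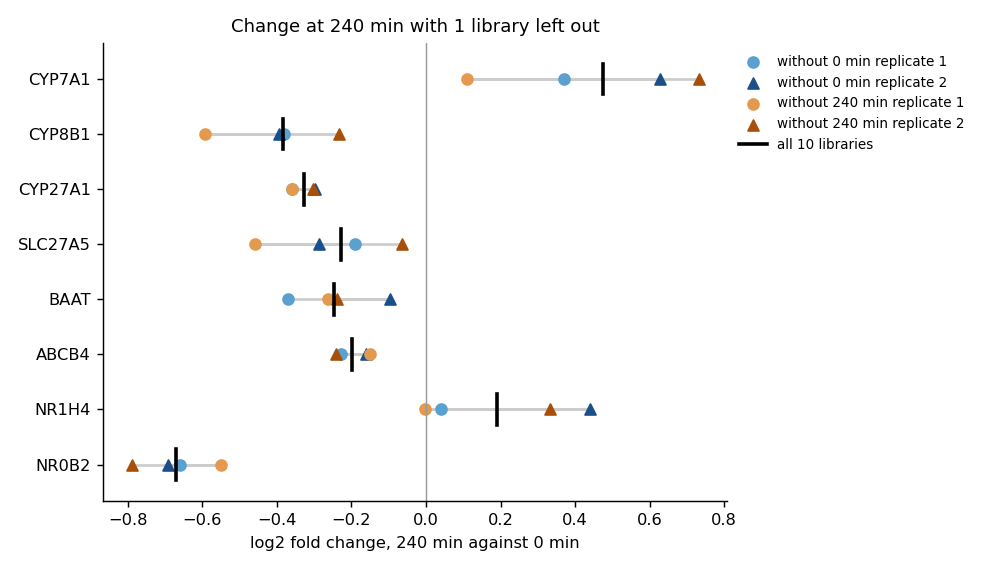
Log2 fold change at 240 min against 0 min for the 8 tested genes, with each of the 4 libraries compared left out in turn (points) and with all 10 libraries (black bars). All 4 points of CYP27A1 (-0.36 to -0.30) and of NR0B2 (-0.79 to -0.55) stay called, and CYP7A1 runs from 0.11 to 0.73.

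Across the 10 libraries the members fell into no single course. CYP8B1 and CYP27A1 varied together (Pearson r = 0.895, Spearman rho = 0.855 on log2 CPM), and CYP8B1 did so with SLC27A5 (r = 0.832, rho = 0.903). CYP7A1 and NR1H4 varied together as well (r = 0.819, rho = 0.794), with replicate 2 above replicate 1 at 0 and 5 min and replicate 1 above replicate 2 at 10, 30 and 240 min for both genes. NR0B2 was not coupled to either of them to that degree, with r of -0.346 with CYP7A1 and -0.425 with NR1H4. The libraries share their times, depth and normalization, so these values are descriptions over 10 points.

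The genes whose course over the 10 libraries was most like that of NR0B2 were SLC43A2, an amino acid transporter, LYZ, the gene of lysozyme, and NFKB1, a subunit of NF-kappaB, with Pearson r of 0.939, 0.937 and 0.936. For CYP7A1 they were PTGDR2, a prostaglandin receptor, the zinc finger gene ZNF331 and FGB, the fibrinogen beta chain, with r of 0.957, 0.941 and 0.930.

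The rest of the pathway was described with 68 other genes in 5 lists, of which 58 were tested. At 240 min 6 of them rose and 12 fell, so that 31% were called, beside 41.0% of all genes, and the median log2 fold change was -0.028. In the synthesis list none of the 5 tested genes was called by edgeR at an adjusted p under 0.05, and 0 had an unadjusted p under 0.05. Among them CYP7B1, CYP39A1 and AKR1C4 had few counts, with means of 0.72, 0.42 and 0.52 CPM. The SE of their log2 fold changes was 0.30, 0.53 and 0.47, so that the list says little of them. AKR1C4 was at a mean of 24.5 TPM at 0 min and 19.4 TPM at 240 min, a level that its counts do not show. HSD3B7 and AKR1D1, which follow CYP7A1 in the making of the ring system, differed by -0.088 and 0.13 on the log2 scale.

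Side chain shortening and conjugation takes place in peroxisomes. Of the 10 tested genes of this list 1 rose and 5 fell, or 60% called beside 41.0% of all genes, with a median of -0.12, and the difference between these shares was not tested. PEX6, a factor of peroxisome assembly, was at 10.2 and 11.9 CPM at 0 min and at 6.28 and 6.42 CPM at 240 min (log2 fold change -0.82, SE 0.12, edgeR adjusted p = 1.45e-05). AMACR, the racemase of the side chain, went from 3.62 and 3.88 CPM to 1.92 and 2.68 CPM (-0.74, SE 0.20, edgeR adjusted p = 0.00667). In TPM the mean of AMACR went from 56.4 to 45.5, the log2 fold change with limma on log2(TPM + 1) was -0.30, and on the same strand the gene overlaps the row C1QTNF3-AMACR, so that the size of its fall is uncertain. ACOX2, the oxidase of the same chain, and ACOT8, a peroxisomal thioesterase, fell by 0.30 and 0.36 on the log2 scale. The PEX6 and ACOX2 calls held with any of the 4 libraries left out, the AMACR call in 2 and the ACOT8 call in 1 of these 4 fits. The other fall was SLC27A2.

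Among the transporters 2 of 11 tested genes rose and 2 fell, or 36.4% called beside 41.0% of all genes. ABCC4, an exporter of the basolateral membrane, was at 34.8 and 33.2 CPM at 0 min and at 44.9 and 45.0 CPM at 240 min (0.41, SE 0.071, edgeR adjusted p = 0.000135). SLC51A, a subunit of the basolateral exporter OSTalpha-OSTbeta, rose by 0.64 on the log2 scale (SE 0.16, edgeR adjusted p = 0.00302). ABCC2, an exporter of the canalicular membrane, and ABCG8, a part of its sterol exporter, both fell by 0.25. The 240 min libraries of these genes did not overlap those at 0 min, which was so for 69.7% of all genes, and the ABCG8 call held in 4 of 13 alternative settings and in 1 of the 4 fits with a library left out. The other 3 calls held in all 4 of those fits. The bile acid uptake carriers SLC10A1, SLCO1B1 and SLCO1B3 were at or below 0.287 CPM in every library and were not tested.

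The receptors and regulators held 2 rises and 3 falls among 19 tested genes, or 26.3% called beside the same 41.0%. RXRB, a partner of FXR, was at 42.2 and 42.6 CPM at 0 min, between 36.3 and 38.4 CPM from 5 to 30 min, and at 22.2 and 23.1 CPM at 240 min (-0.91, SE 0.064, edgeR adjusted p = 3.52e-09). RXRA, another partner, differed by -0.15 (edgeR adjusted p = 0.097). HNF4A, an activator of CYP7A1 and CYP8B1, was at 372 and 394 CPM at 0 min and at 473 and 469 CPM at 240 min (0.30, SE 0.050, edgeR adjusted p = 0.000101). NR1H2, the oxysterol receptor LXRbeta, fell by 0.65 on the log2 scale, and FGFR4, the receptor of the hormone FGF19, by 0.22. Leaving out any 1 of the 4 libraries ended the FGFR4 call and none of the calls on RXRB, NR1H2 and HNF4A.

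The list headed FXR targets outside bile acid handling had 13 tested genes. It gave 1 rise, SDC1 (0.16), and 2 falls, or 23.1% called beside the same 41.0%, with a median of 0.11. SULT2A1 fell by 0.23, and as a bile acid sulfotransferase it belongs to bile acid handling despite the heading. CYP3A4, at a mean of 0.780 CPM, fell by 1.25 on the log2 scale (SE 0.34). It had 10 and 9 reads in the 240 min libraries. In TPM its mean went from 1.39 at 0 min to 0.943 at 240 min, so that the size of its fall is uncertain. The SDC1 call held in 1 and the SULT2A1 call in 2 of the 4 fits with a library left out. At 5, 10 and 30 min none of the 58 genes was called by edgeR, and 6, 4 and 4 had an unadjusted p under 0.05, or 10.3%, 6.9% and 6.9%, beside 14.3%, 5.13% and 8.12% of all genes.

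**Figure D5:**
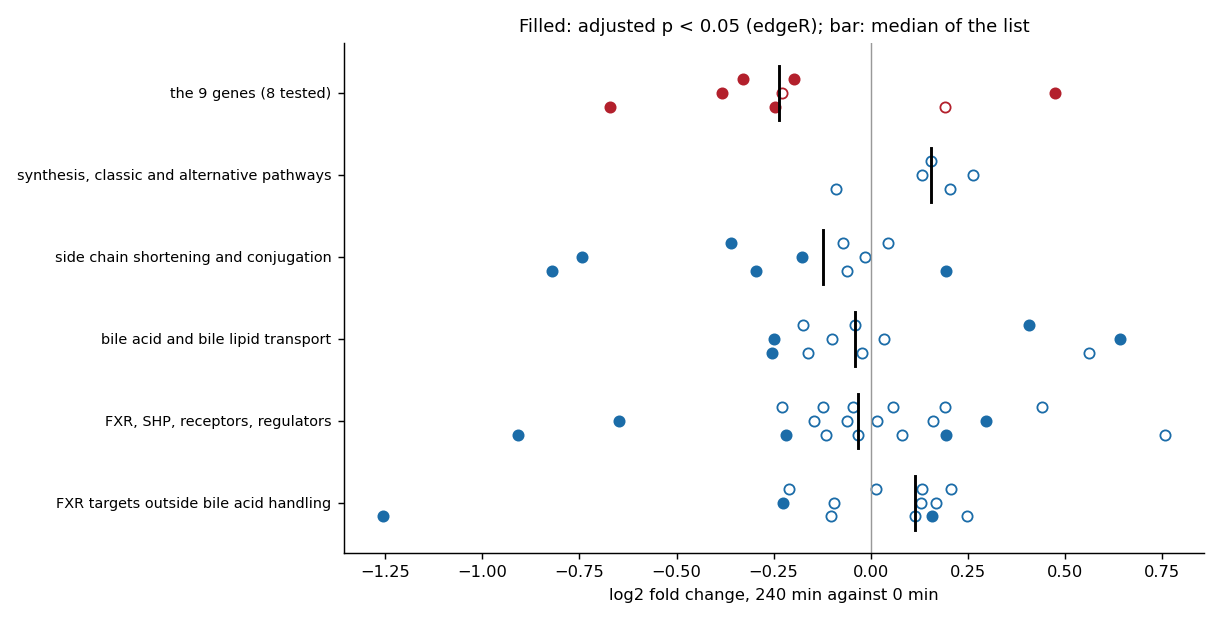
Log2 fold change at 240 min against 0 min for the 8 tested genes of the 9 (red) and for the other genes of the 5 pathway lists (blue), with 1 point a gene, filled where the edgeR adjusted p is under 0.05, and a bar at the median of each list. The 8 genes have a median of -0.24, and the lists have medians from -0.12 to 0.16.

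IR ChIP-seq asked whether the receptor was found at these genes. In hg19, the build of the peaks, none of the 9 gene bodies extended by 5 kb overlapped any of the 1971 peaks, beside 15.7% of the 13837 tested genes with a position and 8 of the 68 pathway genes. With 1 library and no replicate, no test was made. The nearest peaks lay 13.5 kb from BAAT (chr9:104122699-104147287), 22.1 kb from SLC27A5 (chr19:59009700-59023432) and 32.3 kb from ABCB11 (chr2:169779449-169887833). NR0B2 (chr1:27237975-27240567) was 215.5 kb from a peak, and the other 5 genes were 381.6 to 4089.8 kb away. The median distance was 381.6 kb for the 9 genes and 195.7 kb for the tested genes. Among the pathway genes with a peak, RXRB also fell at 240 min, and its peak had a score of 25 in a list with a median of 79. None of the 9 genes shared its position with another gene of the StringTie table on either strand.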

How the data were processed

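Gene counts of 10 RNA-seq libraries of HepG2 cells and the peaks of 1 IR ChIP-seq library were analysed. Per the labels and methods, the authors trimmed single-end reads with Trim Galore 0.6.4, aligned them to hg19 with STAR 2.6.1d, counted them per gene as reverse-stranded with featureCounts 1.6.4 and deposited raw counts. The authors also deposited StringTie abundances in TPM and IR peaks, from BWA 0.7.17-r1188 and MACS2 2.2.7.1, with a score each and HOMER annotation. The 92 rows without a gene name, ERCC spike-ins with 1.59% to 2.36% of counts, were left out of library sizes and of every test.

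Here, edgeR 4.0.16 in R 4.3.3 fitted 1 model without a replicate block on TMM-scaled counts after filterByExpr by time, and a gene was called when its p from the quasi-likelihood test, adjusted after Benjamini-Hochberg, was under 0.05. Each later time was set against 0 min, and 240 min against 30 min. Standard errors are the fold change over the root of F. On simulated data for 240 min against 0 min, 200 of 13722 genes were changed and 171 genes were called. Of changes of 0.5 and 1 on the log2 scale, 77% and 90% were recovered, and 2.34% of calls were false. In the data 5676 of 13852 genes were called, and the called members other than NR0B2 changed by less than 0.5. The simulated rates were not measured for such a setting. The alternatives were DESeq2 1.42.0, the likelihood ratio test, no filter, at least 10 counts in every library, RLE, upper-quartile and ERCC scaling, only the times compared, a replicate block, limma 3.58.1 on log2(TPM + 1), log2(TPM + 0.1) and the first of these for genes whose mean TPM was 1 or more, and each replicate left out. Replicates differed by more than sampling noise (chi-square per degree of freedom 2.81 to 6.32). Peaks and promoters were processed in Python 3.11.15 (numpy 2.4.6, pandas 2.3.3, scipy 1.17.1), and matplotlib 3.10.9 drew the figures.

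Named are the 9 genes, in each pathway list the 4 called genes with the largest change at 240 min and at least 1 CPM, and the 3 genes most like NR0B2 and CYP7A1. HSD3B7, AKR1D1, CYP7B1, CYP39A1, AKR1C4, SLC27A2, the uptake carriers, RXRA, CYP3A4, APOC2 and the 2 readthrough rows were named after their values were seen. Some genes counted in the lists are not reported here by name. Members and lists were chosen with earlier results of these data known.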

Additional observations from a re-analysis of the deposited data

How the results depend on the processing

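NR0B2 at 240 min kept its direction and its call in every setting run, and CYP27A1 in every setting but ERCC scaling. The other calls rested on more of the choices, and the causes were not tested. Called members at 240 min against 0 min numbered 6, and 3 with DESeq2, 2 with each of the 3 limma fits on TPM, 1 with ERCC scaling and 3 to 5 with 1 library left out, the 3 without replicate 2 at 0 min. At 30 min the 1 call became 0 with ERCC scaling and with each limma fit, and 0 to 1 with 1 library left out. At 10 min 0 became 1 with the likelihood ratio test, with no filter and with only the times compared, and at 5 min 0 became 1 with no filter. At 240 min against 30 min, 3 became 5 with no filter, 0 with ERCC scaling and 2 to 5 with 1 library left out, the 5 without replicate 2 at 30 min. The 18 called pathway genes became 5 with ERCC scaling. With gene bodies extended by 20 kb, 1 of the 9 genes, BAAT, had an IR peak, beside 21.3% of tested genes.

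ERCC scaling moved the median log2 fold change of all genes by -0.083, -0.32, -0.13 and -0.12 at 5, 10, 30 and 240 min against 0 min and by 0.013 at 240 min against 30 min. Replicate 2 at 10 min had the highest spike-in share of the 10 libraries, 2.356% of counts. Replicate 1 at 10 min had 1.727%, and the next highest share was 1.915%, in replicate 2 at 240 min. The part of this library in the shift at 10 min was not tested. ERCC scaling called 1059 genes at 240 min, 331 of them higher, against 5676 and 2847 with TMM. At 10 min it called 20, 0 of them higher, against 19 and 6, and at 240 min against 30 min 917, 573 of them higher, against 5297 and 2743. With it ABCB4 stood at -0.26 at 10 min and -0.052 at 30 min and BAAT at -0.053 at 5 min, each of opposite sign to TMM and none called.

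Other uncalled differences changed sign. NR1H4 at 10 min was 0.015 with DESeq2, 0.0087 with the likelihood ratio test and 0.021, 0.024 and 0.021 with limma, and BAAT at 30 min was 0.030 in each limma fit. With 1 library left out, CYP7A1 took values between -0.027 and 0.42 at 30 min and between -0.12 and 0.50 at 240 against 30 min. CYP8B1 ran from -0.10 to 0.0085 at 5 min, -0.23 to 0.017 at 10 min and -0.29 to 0.15 at 30 min, and CYP27A1 from -0.17 to 0.036 at 30 min. NR1H4 ran from -0.094 to 0.36 at 5 min, -0.15 to 0.25 at 10 min, -0.0023 to 0.44 at 240 min and -0.17 to 0.17 at 240 against 30 min. BAAT ran from -0.098 to 0.18 at 5 min, -0.25 to 0.023 at 10 min and -0.13 to 0.14 at 30 min, and SLC27A5 from -0.26 to 0.23 at 240 against 30 min.

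Libraries with the same replicate number showed little shared deviation. Over 10 pairs of times their deviations correlated at -0.12 to 0.13, with 2 pairs over 0.1. These values cannot show whether such libraries were prepared together. With the number as a replicate block, 0, 0, 1 and 6 members were called at 5, 10, 30 and 240 min, 4 at 240 against 30 min, and 19 pathway genes at 240 min.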

Other observations

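APOC2, an FXR target among the pathway genes, had 0 counts in all 10 libraries, so that it was not tested. In TPM it was listed at 460 to 540 in the 8 libraries from 0 to 30 min and at 0 in both at 240 min. The row of the readthrough transcript APOC4-APOC2, which spans the same stretch of chromosome 19, was listed at 0.452 to 9.43 TPM in those 8 libraries and at 196 and 187 TPM at 240 min.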
